A study of Homo sapiens with 10 samples.

Results

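The genes described here are LIN28B, IGF2BP1, IGF2BP2, IGF2BP3, HMGA1, HMGA2, DICER1, DROSHA, AGO1 and AGO2, chosen by name as the LIN28B and let-7 pathway with its IGF2BP and HMGA targets. A poly(A) peak was counted for a gene when its summit lay in the GENCODE 44 body of the gene or up to 600 bp past its 3′ end. By this rule the 10 genes held 202 of the 178837 peaks in the list. Poly(A) 3′-seq had been performed in IMR-32, a human neuroblastoma cell line, after lentiviral knockdown of CDK12 or CDK13, a pair of kinases of transcription elongation. The libraries were CDK12 sh22, CDK12 sh98, CDK13 sh701 and CDK13 sh704, each with 2 libraries, and the control shGFP with 2 libraries. All 10 libraries came from this 1 cell line, selected with puromycin, and all of them were downsampled and merged before peaks were called once. The list therefore holds no strand and no value per library, and neither a difference between shCDK12, shCDK13 and shGFP cells nor a spread between replicates can be given. The libraries had been processed in different batches, which cannot be told apart in the merged reads.

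LIN28B is an RNA-binding protein that blocks the maturation of let-7 microRNAs, and LIN28B mRNA is itself a target of let-7. Primary microRNA transcripts are cut by DROSHA in the nucleus, the hairpins are cut by DICER1 in the cytoplasm, and the mature strand is loaded onto an Argonaute protein such as AGO1 or AGO2, which pairs with sites in 3′ UTRs. IGF2BP proteins bind and stabilise mRNAs, HMGA proteins shape chromatin, and in neuroblastoma LIN28B is known as an oncogene that keeps let-7 low and MYCN high. Cleavage at a more proximal poly(A) site removes from the mRNA the part of the 3′ UTR beyond it, with the microRNA sites there.

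The seed of let-7 is the stretch of bases 2 to 8 that pairs with targets. RefSeq (GRCh38.p14) gave mature sequences for 9 family members, and all 9 shared the seed GAGGUAG, shown in capitals 5′ to 3′ for 4 of them that differ elsewhere. let-7a and let-7e differ inside the strand, let-7d differs also in its first base, and miR-98 carries the same seed under another name.
hsa-let-7a-5p: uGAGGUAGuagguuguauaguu
hsa-let-7d-5p: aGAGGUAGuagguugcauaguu
hsa-let-7e-5p: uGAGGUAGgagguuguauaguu
hsa-miR-98-5p: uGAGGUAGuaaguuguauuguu

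The complement of this seed, CTACCTC, was searched on the strand of the gene in the 3′ UTR of the canonical transcript. It is a match of letters in the reference and not a site shown to be bound. The first match past the stop codon of LIN28B (chr6:105078812-105078841, plus strand), of IGF2BP1 (chr17:49051061-49051090, plus strand) and of HMGA2 (chr12:65963298-65963327, plus strand) are shown on GRCh38, because these genes held the most matches among the 10, with 4 each. The single match of IGF2BP3 (chr7:23311788-23311817, minus strand) is shown as one that lies before all 4 terminal sites of its gene. In all 4 an A follows the capitals, which makes them 8-base matches.
LIN28B match: acccggttgcaaagtCTACCTCatgcaagt
IGF2BP1 match: tgtgtgcgaagtaaaCTACCTCaaggtatg
HMGA2 match: gccaacgttcgatttCTACCTCagcagcag
IGF2BP3 match: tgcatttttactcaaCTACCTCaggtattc

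The 3′ UTRs of the 10 genes held 18 matches in 8 genes, or 0.374 per kb, compared with 0.0632 per kb over the 19539 canonical 3′ UTRs of protein-coding genes, of which 9.77% held at least 1. Since several of the genes are known as let-7 targets, this density describes the choice of genes. The 3′ UTRs were also long, with a median of 3634.5 bases against 1065 bases over all genes. HMGA2 had 4 matches in 2999 bases, and 0.154% of the 651 genes with 3′ UTRs of similar length had as many, namely HMGA2 alone. LIN28B had 4 in 4549 bases (0.307% of genes of similar length) and IGF2BP1 had 4 in 6701 bases (0.613%). Both shares also count the gene itself. AGO2 had 2 matches, and IGF2BP2, IGF2BP3, HMGA1 and AGO1 had 1 each. DICER1 and DROSHA had none.

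**Figure D1:**
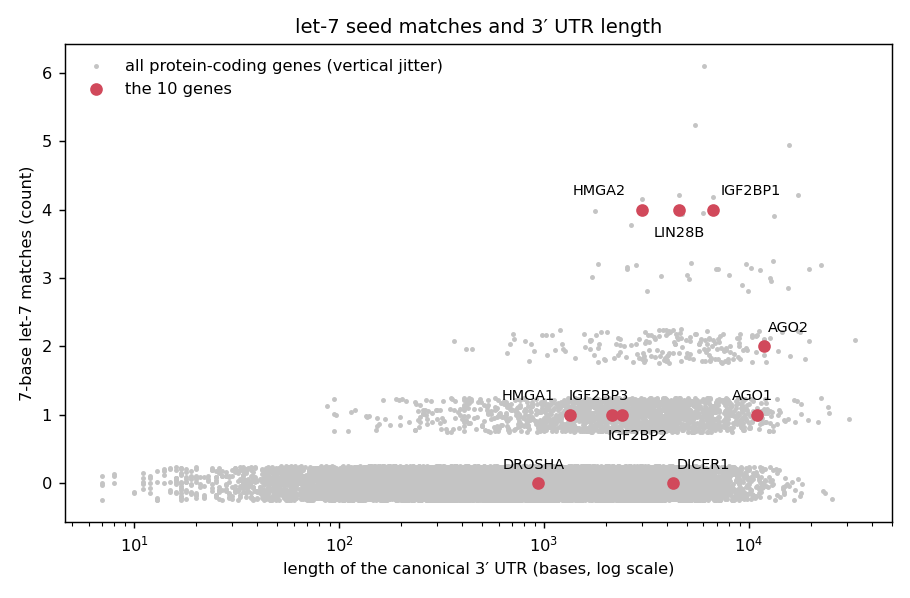
Number of 7-base let-7 matches (vertical axis) against the length of the canonical 3′ UTR in bases (horizontal axis, log scale), with 1 grey point per protein-coding gene, jittered vertically, and the 10 genes in red. LIN28B, IGF2BP1 and HMGA2 lie at 4 matches, and DICER1 and DROSHA lie at 0.

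Peaks were sorted by the summit into terminal peaks (from the canonical stop codon to 600 bp past the gene), peaks at an alternative end (from 200 bp upstream to 600 bp downstream of the end of another transcript of the gene), coding exon, other exon and intron. Of the 202 peaks, 33 were terminal (16.3%, 95% Wilson interval 11.9% to 22.1%) and 143 were intronic (70.8%, 64.2% to 76.6%). A further 14 lay at an alternative end, 9 in a coding exon and 3 in another exon, and shares over all genes are not given for these classes. Over all protein-coding genes the terminal share was 18.4% and the intronic share was 69.9%, both within the intervals of the 10 genes. Intervals cover counting error only.

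**Figure D2:**
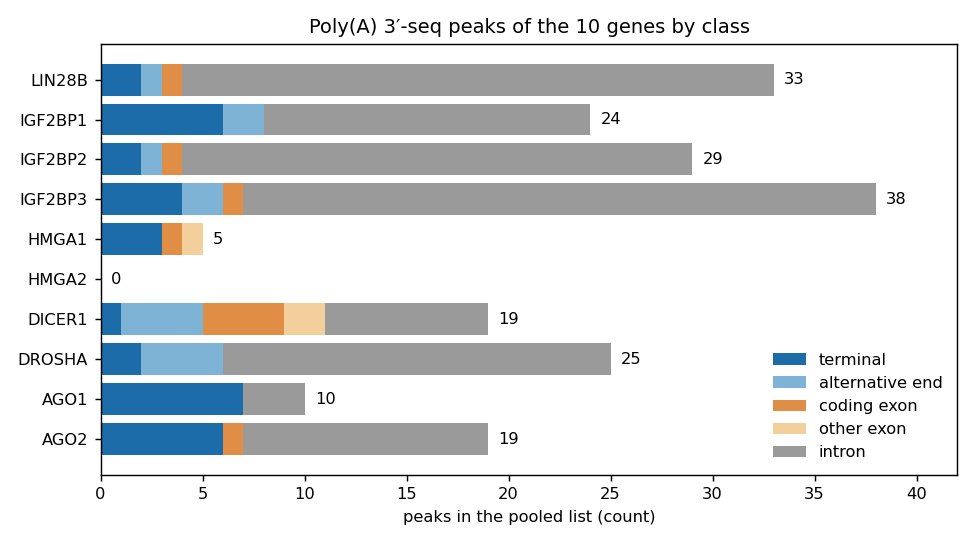
Number of peaks per gene in the pooled list (horizontal axis), stacked by class, with the total at the end of each bar. IGF2BP3 had the most peaks of the 10 genes (38), and HMGA2 had 0.

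The strength of a peak is given as its pileup, the number of extended reads at distinct positions that cover the summit, worked out from the fold and the p-value in the list, with a 95% Poisson interval, and as the deposited −log10 of the q-value, where a larger number is a stronger peak. The pileup levels off at strong sites, so it ranks sites roughly and is no measure of the share of transcripts cleaved there. The position of a site is the 3′ edge of the peak on the strand of the gene, counted from the end of the stop codon. A wide peak can have its summit far before this edge. Up to 40 bp upstream of it, 12 poly(A) signal hexamers were searched on the strand of the gene, namely the main signal AATAAA, its most frequent variant ATTAAA and 10 rarer ones that also differ from the main signal in a single base and are in part spelled out where they were found, and their distance is that of their first base. A site was called A-rich when A made up 7 or more of the 10 genomic bases after its edge, where the oligo(dT) primer could anneal to the RNA itself.

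Of the 10 genes, 9 had a terminal site, while 69.6% of all 20033 protein-coding genes had one. Of these 9, 8 had 2 or more (88.9%, 95% Wilson interval 56.5% to 98%), against 56.6% of all genes with a terminal peak, which lies within the interval, and IGF2BP1, IGF2BP3, AGO1 and AGO2 had 4 or more, against 13.3% of all genes. The 3′ UTRs of the 10 genes are longer than most, and among genes with 3′ UTRs of similar length, as many sites or more were found in 78.5% for LIN28B, 61.0% for IGF2BP2, 88.6% for DICER1, 33.6% for DROSHA and 15.5% for HMGA1. The pileup at the 33 sites ranged from 9 to 48 with a median of 21, and the intronic peaks of the same genes ranged from 4 to 37 with a median of 9. One of the 12 hexamers lay within 40 bp of 20 of the 33 sites (60.6%, 43.7% to 75.3%), compared with 68.9% of all terminal peaks, and began at a median of 24.5 bases upstream. AATAAA or ATTAAA lay at 12 sites (36.4%, 22.2% to 53.4%), against 51.9% of all terminal peaks. The A-rich sites were 6 of 33 (18.2%, 8.61% to 34.4%), against 14.4%. More than 100 bp from any annotated transcript end of their gene were 23 of the 33 (69.7%, 52.7% to 82.6%), against 48.0%. The value over all genes lay outside the interval for this last share and within it for the other 3. The interval treats sites of the same gene as separate, and IGF2BP1, AGO1 and AGO2 held 5 of the 23 each. No such share for 3′ UTRs of similar length was worked out. Distances and hexamers were taken from the edge of the peak, also in wide peaks, and distances only to ends of the same gene. At 4 of the 33 sites the summit lay in another gene. They include the HMGA1 site at 1624 bases and the IGF2BP3 sites at 1572 and 2260 bases, which are counted among the 23. Among the 8 genes with tandem sites, the most distal site was also the strongest in 3 (LIN28B, IGF2BP2 and AGO2), and it was the strongest in 42.8% of all genes with tandem sites.

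**Figure D3:**
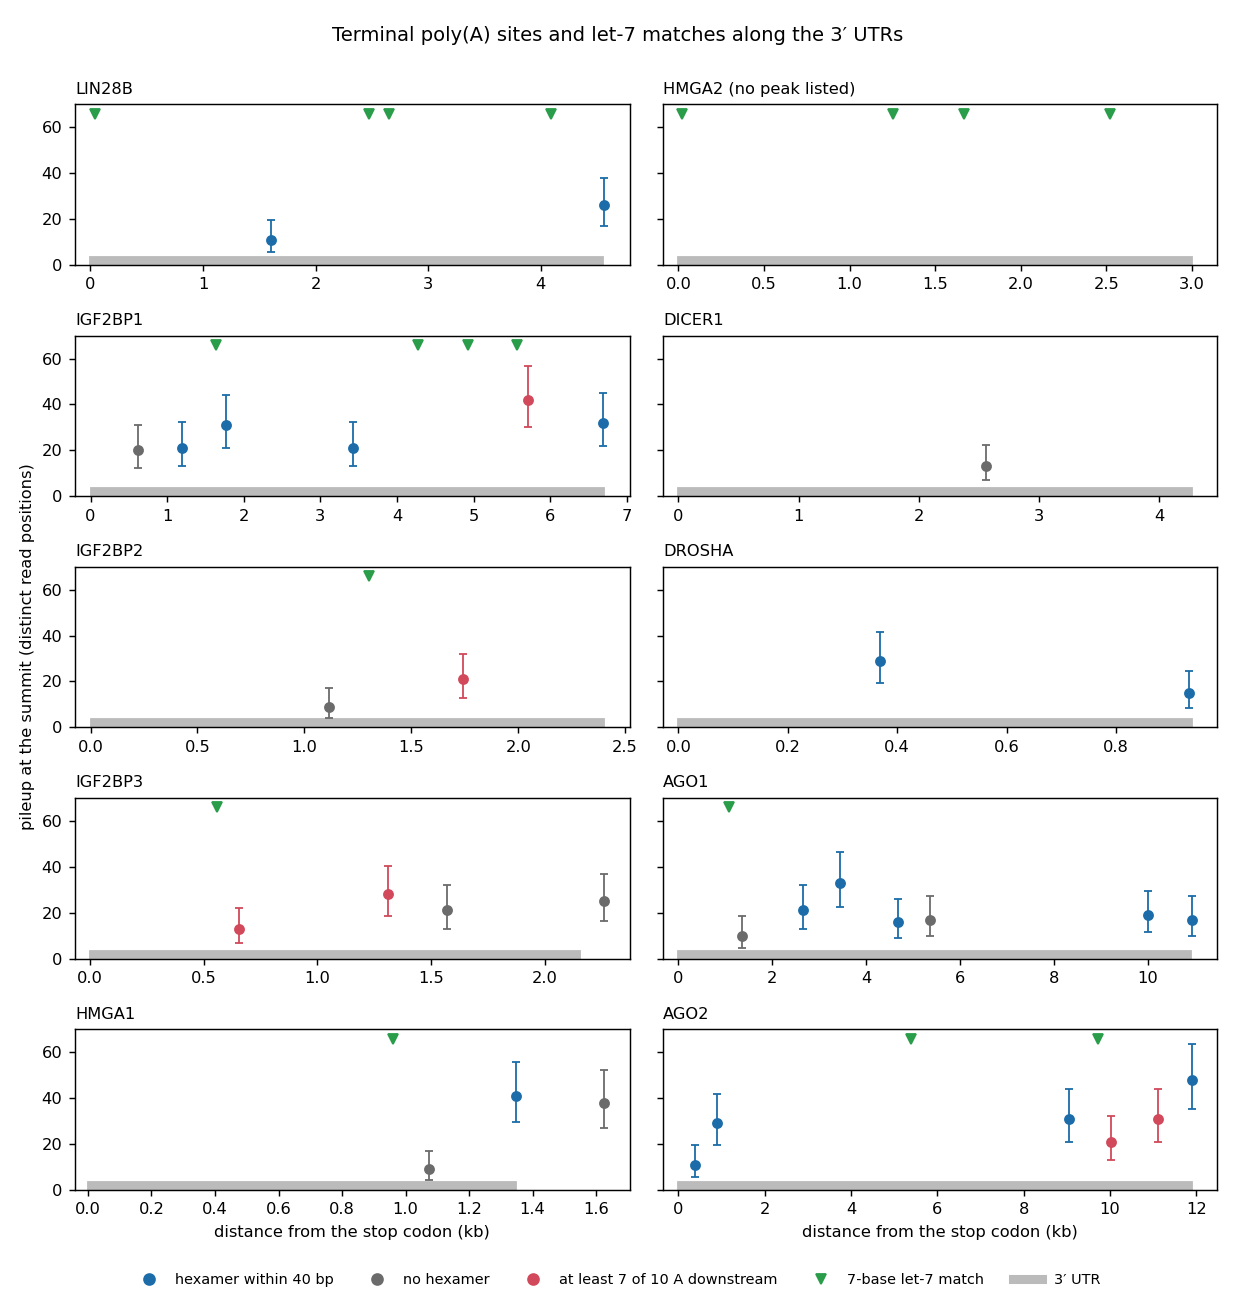
Terminal poly(A) sites of each gene by distance from the stop codon in kb (horizontal axis) and pileup at the summit in distinct read positions (vertical axis), with 95% Poisson intervals. Colours mark sites with a hexamer, without one, and with 7 or more A among the next 10 bases, green triangles mark let-7 matches and the grey bar is the 3′ UTR. AGO1 had the most sites (7), and the highest pileup was that of the last site of AGO2 (48).

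LIN28B (ENSG00000187772.8, chr6:104936616-105083332, plus strand) had 2 tandem sites in its 3′ UTR of 4549 bases. The proximal site lay 1605 bases past the stop codon with a pileup of 11 (5.49 to 19.7) and a −log10 q-value of 5.04. The distal site lay at 4561 bases, 12 bases past the annotated end, with a pileup of 26 (17.0 to 38.1) and a −log10 q-value of 19.9. Their intervals overlapped. Both had AATAAA upstream, 22 bases from the proximal and 37 bases from the distal edge, and neither was A-rich, with 4 and 2 A in 10. The proximal site lay 91 bases from the end of the transcript LIN28B-203, so both ends of the LIN28B 3′ UTR were annotated ones. Of the 4 let-7 matches, the one 44 bases past the stop codon lay before both sites, and those at 2471, 2653 and 4092 bases lay between them. The 30 bases that end at or near each edge (chr6:105080359-105080388 and chr6:105083307-105083336, plus strand, GRCh38) are shown with the hexamer in capitals, since these 2 sites divide the matches.
LIN28B proximal site: ataattaAATAAAaatagcatgactcaaat
LIN28B distal site: AATAAAacatataacgttggcatttatgat

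A peak with a pileup of 14 ended 20 bases before the LIN28B stop codon and another with a pileup of 17 lay in a coding exon. Both had 8 A in the 10 bases downstream and no hexamer within 40 bp. By pileup the strongest LIN28B peak of any class was the distal site. By −log10 q-value a peak in intron 3 ranked above it (22.5 against 19.9). Of all genes with a terminal peak, 44.3% had a strongest terminal pileup at least as high as that of the distal site.

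IGF2BP1, IGF2BP2 and IGF2BP3 are paralogs that bind many of the same classes of mRNA, and IGF2BP1 (ENSG00000159217.10, chr17:48997385-49056145, plus strand) had the most terminal sites of the 3. Its 6 sites lay 619, 1195, 1772, 3424, 5707 and 6695 bases past the stop codon, with pileups of 20, 21, 31, 21, 42 and 32 in that order. As many sites were found in 18.9% of genes with 3′ UTRs of similar length, whose median was 4. The last site lay 6 bases from the annotated end with AATAAA 22 bases upstream, a pileup of 32 (21.9 to 45.2) and a −log10 q-value of 18.2. The site at 5707 bases was stronger by count, with 42 (30.3 to 56.8) and a −log10 q-value of 26.9, and its interval overlapped that of the last site. It was the only A-rich site of the 6, with 8 of 10 bases, and its AATAAA lay 17 bases upstream inside a run of A. The site at 1195 bases had the variant AGTAAA, that at 1772 bases had the variant TATAAA and that at 3424 bases had AAGAAA, and the site at 619 bases, whose peak was 380 bp wide, had none within 40 bp. Apart from the last one, every IGF2BP1 site lay more than 100 bp from an annotated end. All 4 let-7 matches of IGF2BP1, at 1632, 4269, 4923 and 5568 bases, lay past the sites at 619 and 1195 bases, and 3 of them lay between the sites at 3424 and 5707 bases. The last 2 sites are shown (chr17:49055132-49055161 and chr17:49056110-49056139, plus strand), as one that is A-rich and one that is not. For the A-rich site the capitals are the 10 bases downstream of the edge, and for the other they are the hexamer.
IGF2BP1 site at 5707 bases: aaaataaaattaaaaaaaaaAAAACCAAAA
IGF2BP1 site at 6695 bases: atttcaaAATAAAaggaaacttatattgaa

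IGF2BP2 (chr3:185643130-185825042, minus strand) had 2 sites in a 3′ UTR of 2401 bases and none at the annotated canonical end. The first lay 1115 bases past the stop codon with a pileup of 9 (4.12 to 17.1), no hexamer and 6 A in 10. The second lay at 1742 bases, 186 bases from the end of the transcript IGF2BP2-201, with a pileup of 21 (13.0 to 32.1), a width of 414 bp, no hexamer within 40 bp and 9 A in 10. It is the terminal site that a filter modelled on that of the study, on long A stretches without a hexamer, removes, which leaves IGF2BP2 with 1 site and the 10 genes with 32 sites and 7 genes with 2 or more. The second site is shown (chr3:185643779-185643808, minus strand), because its sequence is a long run of A on both sides of the edge, with the 10 bases downstream in capitals. Its let-7 match at 1304 bases lay between the sites. A peak at an alternative end 29499 bases before the stop codon, 14 bases from the end of IGF2BP2-211, had a pileup of 16 and 10 A in 10.
IGF2BP2 site at 1742 bases: ttctgtgacaaaaaaaaaaaAAAAAAAAAG

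IGF2BP3 (chr7:23310209-23470491, minus strand) had 4 terminal sites, and as many were found in 9.52% of genes with 3′ UTRs of similar length. They lay 655, 1310, 1572 and 2260 bases past the stop codon with pileups of 13, 28, 21 and 25, so that the last 3 had overlapping intervals between 13.0 and 40.5. None of the 4 had a hexamer within 40 bp on the strand of IGF2BP3 or on the opposite strand. Over the whole width of the peak, AATAAA or ATTAAA lay 77 bases before the edge of the site at 1310 bases and 133 bases before that of the site at 2260 bases. The sites at 655 and 1310 bases were A-rich with 8 of 10 bases. The summits of the last 3 lay also in MALSU1, a gene on the plus strand that overlaps the end of IGF2BP3, and the first lay 77 bases from an annotated end of MALSU1 when read on that strand. Without strand, the reads of IGF2BP3 and MALSU1 cannot be told apart there. The peak of the last site was 221 bp wide, and its summit lay 2055 bases past the stop codon, inside the 3′ UTR of 2153 bases. Its edge lay 107 bases past the annotated end of IGF2BP3. The nearest peak outside the limit of 600 bp, and the only one up to 2000 bp past any of the 10 genes, had its edge 750 bases past this end, with a pileup of 29 (19.4 to 41.6) and the variant AATGAA 27 bases upstream, while the farthest terminal site inside the limit, of HMGA1, ended 277 bases past its gene. The let-7 match at 560 bases lay before all 4 sites. Of the 2 IGF2BP3 peaks at an alternative end, the one 48981 bases before the stop codon lay 2 bases from the end of IGF2BP3-210, with a pileup of 9 and AGTAAA 26 bases upstream. The other had a pileup of 8 and 10 A in 10.

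HMGA1 and HMGA2 encode small chromatin proteins with AT-hooks. HMGA1 (chr6:34236873-34246231, plus strand) had 3 terminal sites within 1624 bases of the stop codon. The site at its annotated end, 1348 bases past the stop codon, had a pileup of 41 (29.4 to 55.6), the highest −log10 q-value of all 33 sites (39.7), AATAAA 25 bases upstream and 1 A in 10. It is shown with the hexamer in capitals (chr6:34246203-34246232, plus strand). The site at 1075 bases had a pileup of 9 and no hexamer. The site at 1624 bases had a pileup of 38 (26.9 to 52.2), but its summit lay in SMIM29 on the minus strand, its edge on that strand lay 2 bases from an annotated end of SMIM29, and AATAAA lay 35 bases upstream on that strand only. Without strand, the reads of HMGA1 and SMIM29 cannot be told apart there, and the other 2 sites lay in HMGA1 alone. The let-7 match of HMGA1 at 960 bases lay before all of its sites.
HMGA1 site at 1348 bases: cttgAATAAAaaaaatatccttttctggac

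HMGA2 (chr12:65824460-65966291, plus strand) had no peak of any class over 141832 bases and its 3′ UTR of 2999 bases. Genes of similar length had a median of 16 intronic peaks, and 17.4% of genes with 3′ UTRs of similar length had no terminal peak. The list holds only peaks above a q-value threshold, so the absence of a peak says that none was called and gives no level for HMGA2. Its 4 let-7 matches, 21, 1256, 1668 and 2521 bases past the stop codon, could not be placed against any site.

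DICER1 and DROSHA, the RNases that cut microRNA precursors, had no let-7 match. DICER1 (chr14:95086228-95158010, minus strand) had 1 terminal site by the summit rule, 2559 bases past the stop codon, with a pileup of 13 (6.92 to 22.2), no hexamer within 40 bp and 726 bases to the nearest annotated end. Its strongest peak had its summit 14 bases before the stop codon and its 3′ edge 182 bases past it, 5 bases from the end of DICER1-204. That peak had a pileup of 28 (18.6 to 40.5), a −log10 q-value of 22.0, AATAAA 31 bases upstream and 4 A in 10. By its edge it is a second tandem site, and the 3′ UTR up to it is short beside the canonical one of 4270 bases. No peak lay at the canonical end of DICER1. DICER1 also had 4 peaks in coding exons, with pileups from 11 to 15, which is the most of the 10 genes. This count was not set beside genes with as many exons. DROSHA (chr5:31400494-31532196, minus strand) had 2 sites in its 3′ UTR of 938 bases. The one at 368 bases had a pileup of 29 (19.4 to 41.6), AGTAAA 19 bases upstream and a width of 542 bp, and the one at the annotated end, 933 bases past the stop codon, had a pileup of 15 (8.40 to 24.7) and AATAAA 24 bases upstream. The proximal DROSHA site was the stronger by count, with overlapping intervals. For each gene the site with AATAAA is shown with the hexamer in capitals (chr14:95090318-95090347 and chr5:31400499-31400528, both minus strand).
DICER1 site at 182 bases: AATAAAacatttaacatatgtataaaattt
DROSHA site at 933 bases: ttattAATAAAggcaaaacttctttgtaaa

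DROSHA had 4 peaks at ends of other transcripts upstream of its 3′ UTR. The strongest had a pileup of 18, 94 bases from the end of DROSHA-217 and with no hexamer within 40 bp, and that at the end of DROSHA-208, 1 base away, had a pileup of 7 and TATAAA 17 bases upstream.

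AGO1 and AGO2, Argonaute proteins that carry the mature microRNA, had the longest 3′ UTRs of the 10, at 10925 and 11888 bases, and the most terminal sites beside IGF2BP1. AGO1 (chr1:35869808-35930532, plus strand) had 7, and as many were found in 9.97% of genes with 3′ UTRs of similar length and in 1.35% of all genes with a terminal peak. They lay 1347, 2664, 3436, 4686, 5366, 10004 and 10933 bases past the stop codon, with pileups of 10, 21, 33, 16, 17, 19 and 17. None was A-rich. The highest, at 3436 bases, had 33 (22.7 to 46.3) and AATAAA 10 bases upstream, and its interval overlapped those of every other AGO1 site except the one at 1347 bases (4.80 to 18.4). The last site lay 8 bases past the annotated end with ATTAAA 31 bases upstream, and the first lay 4 bases from the end of AGO1-202 without a hexamer. The other 5 lay 921 to 3796 bases from any annotated end. Of those 5, the sites at 2664, 3436 and 10004 bases had AATAAA or ATTAAA. No AGO1 site lay between 5366 and 10004 bases. The let-7 match at 1085 bases lay before all 7 sites. A pair of the sites far from annotated ends is shown with the hexamer in capitals (chr1:35923014-35923043 and chr1:35929582-35929611, plus strand).
AGO1 site at 3436 bases: agagaatggagagaatttgAATAAAaggtg
AGO1 site at 10004 bases: cgaggATTAAAaatgacttttaagatgcag

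AGO2 (minus strand, 115478 bases long) had 6 sites in 2 groups. The sites 383 and 893 bases past the stop codon had pileups of 11 and 29, and those at 9050, 10027, 11106 and 11893 bases had 31, 21, 31 and 48. The last, 5 bases past the annotated end, had the highest pileup of all 33 sites, 48 (35.4 to 63.6), with a −log10 q-value of 36.7 and AATAAA 26 bases upstream. The sites at 10027 and 11106 bases were A-rich, with 9 and 7 of 10 bases, and the 4 that were not each had a hexamer. The peak of the site at 893 bases was 309 bp wide, with its summit 677 bases past the stop codon. In that peak AATAAA or ATTAAA lay 209 bases before the edge. As many sites were found in 18.9% of genes with 3′ UTRs of similar length. Both let-7 matches, at 5397 and 9723 bases, lay past the proximal sites at 383 and 893 bases, and the first of them lay in the long interval without a site.

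In the genes with a site and a match, 10 of 14 let-7 matches (71.4%, 45.4% to 88.3%) lay past the most proximal terminal site, in the stretch that an mRNA ending at that site lacks. No match lay past the most distal site. The same share over all genes was not worked out, and the interval treats matches in the same gene as separate. LIN28B and IGF2BP1 held 7 of the 10, and in IGF2BP3, HMGA1 and AGO1 the single match lay before every terminal site. Peaks upstream of the stop codon are not counted here. With only peaks of a −log10 q-value from 20 upward, the share past the most proximal site was 25% (2 of 8). These counts describe where terminal peaks were called in the merged libraries. They show neither that each peak is an mRNA end nor how often it was used.

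The 143 intronic peaks lay in 8 genes, LIN28B (29), IGF2BP1 (16), IGF2BP2 (25), IGF2BP3 (31), DICER1 (8), DROSHA (19), AGO1 (3) and AGO2 (12). HMGA1 and HMGA2 had none. Since the number of intronic peaks grows with length, each gene was set beside protein-coding genes in the same of 30 length quantiles. The shares with as many count the gene itself. IGF2BP1 had 16 against a median of 6, and 0.792% of genes of similar length had as many. IGF2BP3 had 31 against 16 (4.44% had as many) and LIN28B had 29 against 16 (7.30%). IGF2BP2 (25 against 20, 34.4%), DROSHA (19 against 12, 21.4%) and DICER1 (8 against 7, 49.3%) lay nearer to genes of their length. AGO2 was at the median of 12, and AGO1 was below it with 3 against 6. Per 100 kb of intron, the count ran from 8.93 in AGO1 to 32.0 in IGF2BP1, with 20.7 in LIN28B and 19.9 in IGF2BP3. Against only those genes of similar length that had a terminal peak, a choice made after the values were seen, the shares with as many were 0.977% for IGF2BP1, 5.20% for IGF2BP3 and 8.48% for LIN28B.

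**Figure D4:**
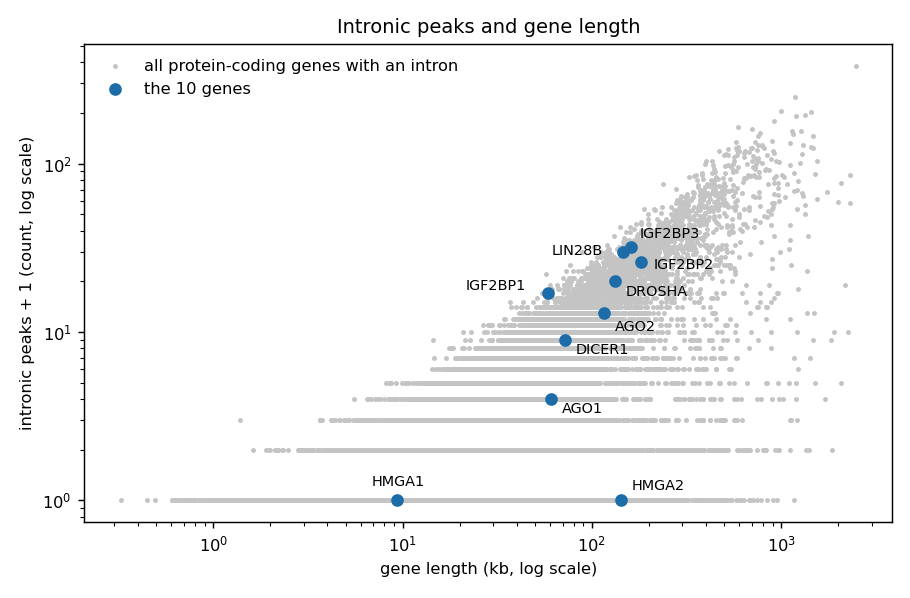
Intronic peaks plus 1 (vertical axis, log scale) against gene length in kb (horizontal axis, log scale), with 1 grey point per protein-coding gene with an intron and the 10 genes in blue. IGF2BP1 (16 intronic peaks) lies at the upper edge of the cloud for its length, and HMGA2 (0) lies at the bottom.

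Most of these intronic peaks lay beside genomic A. By the limit above, 99 of the 143 were A-rich on the strand of the gene (69.2%, 61.2% to 76.2%), close to the 67.0% of all 113415 intronic peaks of protein-coding genes. Read on the opposite strand, 3 of the 143 were A-rich, and 41 (28.7%) were A-rich on neither strand. Among genes with at least 12 intronic peaks, A-rich ones were 16 of 19 in DROSHA, 10 of 12 in AGO2, 19 of 25 in IGF2BP2, 20 of 31 in IGF2BP3, 10 of 16 in IGF2BP1 and 17 of 29 in LIN28B. What part priming on genomic A has in these peaks was not tested.

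The strongest intronic peaks were in IGF2BP1. A pair in intron 5 had pileups of 37 (26.1 to 51.0) and 33 (22.7 to 46.3), within the range of the terminal sites of the gene (20 to 42), with −log10 q-values of 30.6 and 26.6. Both had 8 A in 10 downstream, and the summit of the second lay in RNU6-826P, a small nuclear RNA pseudogene. Another IGF2BP1 peak, in intron 2, had a pileup of 24 (15.4 to 35.7) with 6 A in 10. In LIN28B the strongest, in intron 3, had 22 (13.8 to 33.3) with 7 A in 10. In IGF2BP3, those in introns 2 and 5 had 21 each with 8 and 9 A in 10. The intronic peaks of IGF2BP2, DROSHA and AGO2 reached at most 12, 12 and 10.

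Intronic peaks with fewer than 7 A downstream and AATAAA or ATTAAA within 40 bp numbered 9 of 143 (6.29%, 3.35% to 11.5%). This share was not worked out over all intronic peaks. LIN28B held 5 of them, with pileups of 12, 13, 17, 11 and 6, and the first 2 of these lay upstream of the canonical start, inside a longer transcript of the gene. The summit of the first lay also in ENSG00000290011, a gene on the same strand, and cannot be assigned to either. IGF2BP3, DICER1, DROSHA and AGO2 held 1 each, with pileups of 8, 10, 6 and 4. The LIN28B peak with a pileup of 17 (9.90 to 27.2), in intron 2, is shown with its hexamer in capitals (chr6:104976358-104976387, plus strand, GRCh38), as the strongest of the 9. It had 6 A in 10, just below the limit. Its AATAAA began 5 bases before the edge, against a median of 24.5 bases at the terminal sites with a hexamer.
LIN28B site in intron 2: tgaagaatgaagaacgagtaggcaAATAAA

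**Figure D5:**
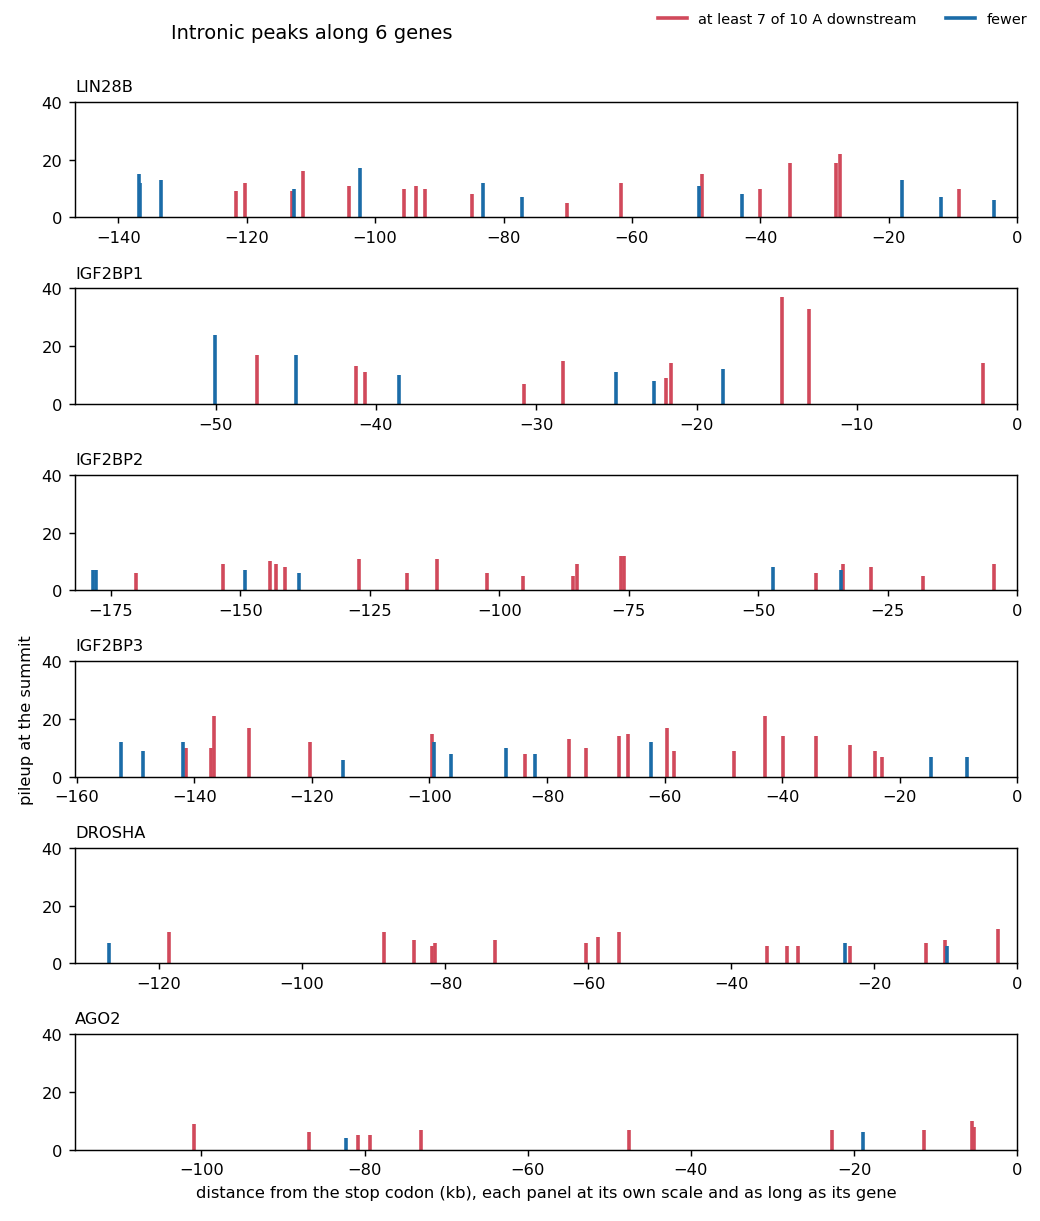
Intronic peaks of 6 genes by distance of the 3′ edge from the stop codon in kb (horizontal axis, each panel at its own scale) and pileup (vertical axis), in red where A made up 7 or more of the next 10 bases and in blue elsewhere. IGF2BP1 holds the tallest lines (37 and 33), and the lines of IGF2BP2, DROSHA and AGO2 stay at or below 12.

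Along the genes, 18 of the 25 intronic peaks of IGF2BP2 lay in the first 2 introns, 9 of 16 in IGF2BP1 and 9 of 31 in IGF2BP3. In LIN28B 25 of the 29 lay in an intron of the canonical transcript, and 14 of them were in the first 2. In DICER1, 6 of 8 (75.0%) lay in the first intron, which holds 38.9% of the intron bases, and in AGO2 6 of 12 did, beside 49.7% of the bases. DROSHA had none in its first 2 introns. The share of intron bases in the first 2 introns was not worked out, so the counts over 2 introns cannot be set beside intron length. Numbers this small set no order between the genes.

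Of 14 other genes of the pathway, 13 had a terminal peak, against 69.6% of all protein-coding genes. Of these 13, 11 had 2 or more, against 56.6% of all genes with a terminal peak. The pathway lists were not set beside genes with 3′ UTRs of similar length. LIN28A, the paralog of LIN28B with the same action on let-7, had no peak. The most terminal peaks among these 14 were found in TNRC6B (7, strongest pileup 32), followed by TNRC6C (6, strongest pileup 40), both scaffold proteins that Argonautes recruit for silencing, and by AGO3, a further Argonaute, with as many as TNRC6C and a lower strongest pileup (18). Of 8 other known let-7 targets, 7 had a terminal peak and 5 of these 7 had 2 or more, beside the same 69.6% and 56.6%. CCND2, a cyclin of the G1 phase, had no peak. IGF1R, the receptor of insulin-like growth factors, had the most intronic peaks of any other pathway gene (50), followed by DIS3L2, the exonuclease that degrades let-7 precursors tagged through LIN28 (46), and TNRC6B (43). All 5 transcripts that carry let-7 precursors had a peak at an end, 4 of them 2 or more, and MIR99AHG, which carries the let-7c precursor, had 10, with windows around the ends of all its transcripts.

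As a check of the cell type, all 13 adrenergic neuroblastoma markers had a terminal peak, with strongest pileups from 17 (DBH) to 114 (PHOX2A) and 73 for MYCN. Of all protein-coding genes 69.6% had a terminal peak, with a median strongest pileup of 24. DBH and TH (21) lay below that median. Of 10 markers of other cell types 5 had a terminal peak, with strongest pileups of at most 14 (COL1A1). A terminal peak by itself thus does not tell cell types apart. DCN, PTPRC, CD3E, PECAM1 and VWF had none.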

How the data were processed

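Poly(A) 3′-seq libraries of IMR-32 cells were made with the QuantSeq REV kit. The authors trimmed the reads, mapped them to GRCh38 with STAR 2.5.1b, downsampled and merged the libraries and called peaks with MACS2 2.1.1, extending reads to 100 bp. In the deposited list, fold is the ratio of the pileup to the local background, each with the same constant added. The deposited p-value and q-value are given as −log10. The 6 columns of values belong to no single sample and were used as pooled values. Depth per library is unknown.

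From each deposited fold and p-value the pileup at the summit was computed as a whole number. The largest miss of the −log10 p-value was 0.000168, and the next best whole number missed by a median of 0.0780. Genes were taken from GENCODE 44 and sequence from GRCh38. "Similar length" means the same of 30 quantiles over all protein-coding genes, and the shares with as many count the gene itself. The 10 genes were named in full, and of the other pathway genes those without a peak and the 3 with the most terminal (ties by the highest pileup) and the most intronic peaks. The genes and lists were chosen with earlier results of these data known. No significance test was run, as the merged list holds no value per replicate. The steps were tested on simulated data. Python 3.11.15, numpy 2.4.6, scipy 1.17.1, pandas 2.3.3, pysam 0.24.0, samtools 1.23.1 and matplotlib 3.10.9 were used.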

Additional observations from a re-analysis of the deposited data

How the results depend on the processing

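No paired analysis was possible because peaks were called on merged libraries, which also means that replicates could not be left out 1 by 1. Of 45 recomputed values, 36 stayed within 1.5 times the count, or within the 95% interval of the share, first given. With only peaks of a −log10 q-value from 20 upward, the 10 genes kept 11 peaks, 7 terminal sites, 2 genes with tandem sites and 3 intronic peaks. In that setting 100% of the intronic peaks (3 of 3) were A-rich, 85.7% of the terminal sites had a hexamer, and 25% of let-7 matches (2 of 8) lay past the most proximal site. Restricting the hexamers to AATAAA and ATTAAA gave 36.4%, and at least 6 A in 10 gave 79.0% of intronic peaks. Fewer peaks or a narrower or wider definition are built into these settings. With the 3′ edge as position, all 9 genes with a site had 2 or more (34 sites), through DICER1. Without A-rich sites, 27 sites remained and 7 genes had 2 or more. Reaching 2000 bp past the gene added 1 site, of IGF2BP3.

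The pileup rests on few reads, levels off at strong sites and is merged over knockdown and control cells, so which tandem site is used more, and in which cells, is not known. Against genes of similar length that had a terminal peak, the shares with as many intronic peaks moved beyond their intervals for IGF2BP2 (41.5%), DROSHA (25.3%), DICER1 (59.8%), AGO1 (83.6%) and AGO2 (63.4%).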

Other observations

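Of the 12 let-7 family hairpins of RefSeq, 4 had a peak summit within 250 bp (33.3%, 95% Wilson interval 13.8% to 60.9%), beside 106 of all 1554 RefSeq hairpins (6.82%), a comparison made after the values were seen. The interval treats hairpins as separate, although MIRLET7A1 and MIRLET7F1 were counted through the same peak and MIRLET7D lay near them on chromosome 9. MIRLET7B had a summit 109 bp downstream, with a pileup of 15, AATAAA 23 bases before its edge on the strand of the hairpin and 2 A in the 10 bases after it. A single peak with a pileup of 19 lay between MIRLET7A1 (223 bp upstream of its summit) and MIRLET7F1 (88 bp downstream), without a hexamer and with 4 A in 10. MIRLET7D had a summit 61 bp upstream with a pileup of 13 and 9 A in 10. MIRLET7I had a summit 616 bp downstream with a pileup of 23, AATAAA 25 bases before the edge and 2 A in 10. The nearest summit to MIRLET7A2 lay 45324 bp away.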
